A study of Mus musculus with 36 samples.

Results

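The comparison described here asked whether the difference in microRNA (miRNA) level between the HF and LF groups was the same in liver as in epididymal white adipose tissue (eWAT), the fat pad beside the testis. It rests on 20 of the 36 small RNA libraries of the series. They are 5 liver LF libraries (replicates 1, 2, 3, 5 and 6), 5 liver HF libraries (replicates 1 to 5), 4 eWAT LF libraries (replicates 2, 3, 5 and 6) and 6 eWAT HF libraries (replicates 1 to 6). The libraries were selected on measured values in part: eWAT LF replicates 1 and 4 were left out because their counts of the miR-200 family, a marker of epithelial cells, were very high. Liver LF replicate 4 and liver HF replicate 6 were left out as well, and they do not appear in the authors' liver log2 table.

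All animals were wild-type C57BL/6 males of an F1 generation, 24 weeks old. They ate chow until 6 weeks of age and then 1 defined diet for 18 weeks. The diet tags are LFD in the LF group and HFD in the HF group, but the treatment text of every sample names LFD. A group name could therefore stand for the diet of the mouse or of its father, and the labels do not settle which. They also do not state that replicates came from separate mice. The p-values therefore cover the spread between libraries, which may be technical. A further pair of groups tagged HFLFD, with 6 libraries in each tissue, is used only beside the main comparison.

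A miRNA is a short RNA that guides a silencing complex to messenger RNAs, chiefly through its seed, bases 2 to 8 from its 5′ end. Many miRNAs come in families that share a seed or in genomic clusters that are transcribed together. The imprinted Dlk1-Dio3 region holds one of the largest mouse clusters, transcribed from the maternal chromosome, active in the embryo, brain, muscle and fat and low in adult liver. miR-122 is the abundant miRNA of hepatocytes, miR-143 is abundant in adipose and smooth muscle, and let-7, named in the title of the series, is an abundant family linked to glucose metabolism.

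The sequences shown are those of the miRNAs on which the comparison turns, from RefSeq on GRCm38.p6, with the seed in capitals. The group from the Dlk1-Dio3 region of chromosome 12 comes first, since 6 of the 10 miRNAs with the smallest p among those lower in liver are on the list of that region. Among the 569 tested miRNAs with a RefSeq sequence, each of these 7 seeds belonged to 1 miRNA. miR-409-5p (chr12:109743172-109743194, plus strand) and miR-668-3p (chr12:109734774-109734797, plus strand) lie in introns of the noncoding gene Mirg. miR-127-3p (chr12:109592888-109592909, plus strand) lies opposite an exon of Rtl1, a retrotransposon-derived gene on the minus strand. miR-379-5p (chr12:109709065-109709085), miR-411-5p (chr12:109710190-109710210), miR-299a-3p (chr12:109710676-109710697) and miR-673-5p (chr12:109572004-109572025) lie in no annotated host gene of GENCODE M21. miR-376c-3p, of the same region, has no sequence in the table used.
miR-409-5p: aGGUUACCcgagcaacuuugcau
miR-668-3p: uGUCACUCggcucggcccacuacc
miR-299a-3p: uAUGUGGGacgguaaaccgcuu
miR-673-5p: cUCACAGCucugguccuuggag
miR-127-3p: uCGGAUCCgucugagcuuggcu
miR-411-5p: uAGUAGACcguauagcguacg
miR-379-5p: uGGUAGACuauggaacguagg

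The other group holds miRNAs that lie elsewhere, with let-7e-5p to show the seed of the let-7 family. The exception is miR-1247-5p, which comes from the same imprinted region but is not on the list. Its HF effect was higher in liver than in eWAT, opposite to most of the list. miR-10b-5p (chr2:74726074-74726096, plus strand) lies in an intron of Hoxd3 and Hoxd4, developmental regulators, and shares its seed with miR-10a-5p. miR-203b-3p (chr12:112130887-112130908, minus strand) lies in no annotated host gene. miR-1247-5p (chr12:110278094-110278115, minus strand) lies in an exon of Dio3os, the noncoding transcript beside Dio3 at the far end of the imprinted region. miR-802-5p (chr16:93369737-93369758, plus strand), a miRNA of hepatocytes, has no annotated host gene. let-7e-5p (chr17:17830366-17830387, plus strand) lies in an intron of Spaca6, and 10 tested miRNAs carried its seed.
miR-10b-5p: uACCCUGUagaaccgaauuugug
miR-203b-3p: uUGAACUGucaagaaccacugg
miR-1247-5p: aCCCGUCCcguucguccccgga
miR-802-5p: uCAGUAACaaagauucauccuu
let-7e-5p: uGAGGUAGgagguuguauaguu

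The 20 libraries held 7866583 to 15662851 counts in liver and 9066683 to 15090599 in eWAT. The tissue labels fit the defining miRNAs, with miR-122-5p at 46.1% to 57.0% of counts in liver and 0.0553% to 0.286% in eWAT, and miR-143-3p at 0.903% to 1.61% in liver and 12.8% to 22.8% in eWAT. Levels are counts-per-million values (CPM) scaled by TMM, a normalization that sets the middle of the miRNAs equal between libraries. Its factors were 0.546 to 0.725 in liver and 1.46 to 1.68 in eWAT, so a scaled liver value is larger than its unscaled one. In unscaled CPM the miR-200 list came to 16070 in eWAT LF replicate 1 and 23669 in replicate 4, against 92.997 to 304 in the 10 eWAT libraries kept, a difference that chose the libraries and is given as a description. The liver libraries left out held 316 and 368 detected miRNAs, against 540 to 628 in the liver libraries kept.

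No miRNA had a HF effect that differed between the tissues past the threshold. The value tested was the HF minus LF difference in liver minus the same difference in eWAT, on a log2 scale, so a negative value means that HF lay lower relative to LF in liver than in eWAT. Of 674 miRNAs tested, 0 had a Benjamini-Hochberg adjusted p under 0.05 with edgeR's quasi-likelihood test (0%), and the smallest was 0.0581, for miR-409-5p. At an unadjusted p under 0.05 there were 71 miRNAs (10.5% of those tested), and uniform p-values would give 33.7. Of these, 52 were lower in liver (7.72%) and 19 higher (2.82%). DESeq2 called 16 miRNAs on the same counts, with 60 at an unadjusted p under 0.05 and 29 without an adjusted p. limma voom called 0, with 37. The 16 called by DESeq2 were miR-127-3p, miR-299a-3p, miR-376c-3p, miR-379-3p, miR-409-5p, miR-411-5p and miR-668-3p of the Dlk1-Dio3 list, together with miR-10b-5p, miR-196a-5p, miR-203b-3p, miR-296-5p, miR-615-3p, miR-673-5p, miR-708-3p, miR-708-5p and miR-1247-5p.

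The median of this difference over all tested miRNAs was -0.09 and moved to 0.03 without TMM scaling. Fitted values of single miRNAs moved as well, by amounts that differed. For instance, miR-668-3p went from -3.55 to -3.37 and miR-376c-3p from -4.51 to -4.42. In the plot of both tissues the miRNAs of the Dlk1-Dio3 list sat mainly below 0 in liver and slightly above 0 in eWAT.

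**Figure D1:**
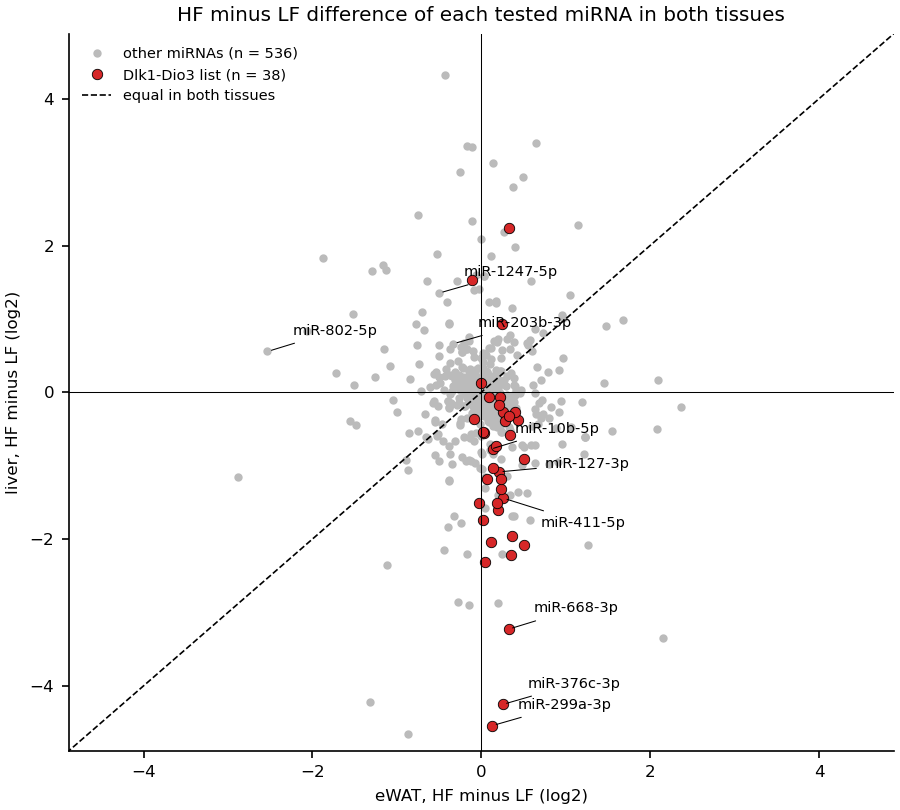
Fitted HF minus LF difference (log2) in eWAT on the x axis and in liver on the y axis for the 574 tested miRNAs with counts in all 4 groups. Red points are the 38 Dlk1-Dio3 miRNAs among them, grey points the other 536, and the dashed line marks equal differences in both tissues. miR-668-3p, miR-299a-3p and miR-376c-3p lie far below the line, miR-1247-5p and miR-802-5p above it.

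The miRNAs of the Dlk1-Dio3 list lay lower in HF than in LF liver and slightly higher in HF than in LF eWAT. Of 100 such miRNAs in the table, 58 passed the filter on low counts. Of these, 49 had a value below 0 and 9 above 0, with a median of -1.28, where 295 of all 674 tested miRNAs lay above 0. The median was -1.05 when miRNAs at 0 in a whole group were set at the bound that 3 counts over that group allow. In 21 of the 58, the unadjusted p was under 0.05, 19 lower in liver (32.8% of the members, where the background is 7.72%) and 2 higher, and none passed the adjusted threshold. These counts are a description, since many members passed the filter through eWAT alone. For instance, miR-341-3p and miR-370-3p had 4 counts each in LF liver and 0 in HF liver. In liver, miR-337-3p, miR-380-3p, miR-381-3p, miR-412-5p and miR-539-5p had 0 counts in both groups, so their value was the eWAT difference with its sign reversed. Members are transcribed together and were measured in the same libraries, so they are not independent of each other. The list was also chosen with earlier results of these data known. A split chosen after seeing the data kept the miRNAs with at least 100 counts summed over the 10 liver libraries. Of the 21 members kept, 20 had a value below 0, with a median of -0.91, and 6 were lower in liver at an unadjusted p under 0.05 (28.6%). Over all 436 miRNAs kept, 20 were lower at that p (4.59%), and the median was -0.06.

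The difference lay on the liver side. In liver, 45 of 58 members lay below 0, with a median HF minus LF of -0.97, and in eWAT 45 of 58 lay above 0, with a median of 0.22. Over all 674 miRNAs, 360 lay below 0 in liver and 374 above 0 in eWAT. Position was available for 55 of the 58, and all 55 lay between chr12:109585818 and chr12:109743784. miR-679-5p was also tested and lay in this interval, but it was not on the list. It lay above 0 in the fit that added the HFLF libraries. Of the 56 tested miRNAs with a position in the interval, 47 lay below 0, with a median of -1.22. At an unadjusted p under 0.05 with edgeR, 17 of the 56 were lower in liver and 2 higher. Members that passed the filter only through eWAT were counted with the rest: 16 members had no count in any HF liver library and 9 none in any LF liver library.

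Summed over the list, the CPM in LF liver replicates 1, 2, 3, 5 and 6 was 284, 147, 271, 119 and 121. In HF liver replicates 1 to 5 it was 101.3, 94.2, 132.3, 78.3 and 74.8. LF replicates 1 and 3 stood highest, and HF replicate 3 lay above LF replicates 5 and 6, so the groups overlapped. In eWAT the sum ran from 1271 to 1686 in LF and from 1363 to 2029 in HF, and the groups overlapped as well. With TMM scaling the cluster was thus about an order of magnitude more abundant in eWAT than in liver. Without the scaling the gap was wider, at 1937 to 3247 CPM in eWAT against 52.5 to 180 in liver.

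The 2 liver libraries left out bear on this. Without TMM scaling the list summed to 35.5 CPM in liver LF replicate 4, below all 5 HF libraries kept, which held 52.5 to 90.8, and to 47.1 in liver HF replicate 6. The LF libraries kept held 75.2 to 180 on that scale. With all 24 LF and HF libraries the median of the list was -1.11, over 56 tested members of which 13 had an unadjusted p under 0.05 and a lower value in liver.

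Markers of other cells were set beside this sum, since fewer cells of a type and less RNA per cell cannot be told apart in bulk tissue. The 11 tested miRNAs of the adipocyte list summed to 66843 to 90909 CPM in LF liver and 77456 to 90522 in HF liver. Of them, 1, miR-196a-5p, was at 0 in HF liver. In liver the sum was mostly miR-30a-5p (33439 to 45576 in LF, 33999 to 45573 in HF) and miR-143-3p (13553 to 25307 and 19945 to 22770). It therefore does not measure adipocytes alone. In liver 4 of the 11 lay below 0, and 1, miR-10b-5p, was lower in every HF than in every LF library. The 7 of the fibroblast, stellate and smooth muscle list, led by miR-199a-3p, summed to 3751 to 7230.5 in LF and 4653 to 6998 in HF liver, with none at 0. The striated muscle list summed to 26.1 to 70.2 in LF and 14.2 to 32.7 in HF liver, where it was led by miR-1a-3p. The germ cell and epididymis list, of which 21 miRNAs were tested, lay mainly below 0 as well: 17 of the 21 between tissues, with a median of -0.39 and 2 lower at an unadjusted p under 0.05, and 16 of the 21 in liver. It summed to 34.7 to 116 CPM in LF and 31.7 to 55.1 in HF liver, with 6 of its 24 members at 0 in HF liver and 3 in LF liver. The part of each in the values of the Dlk1-Dio3 miRNAs was not tested.

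**Figure D2:**
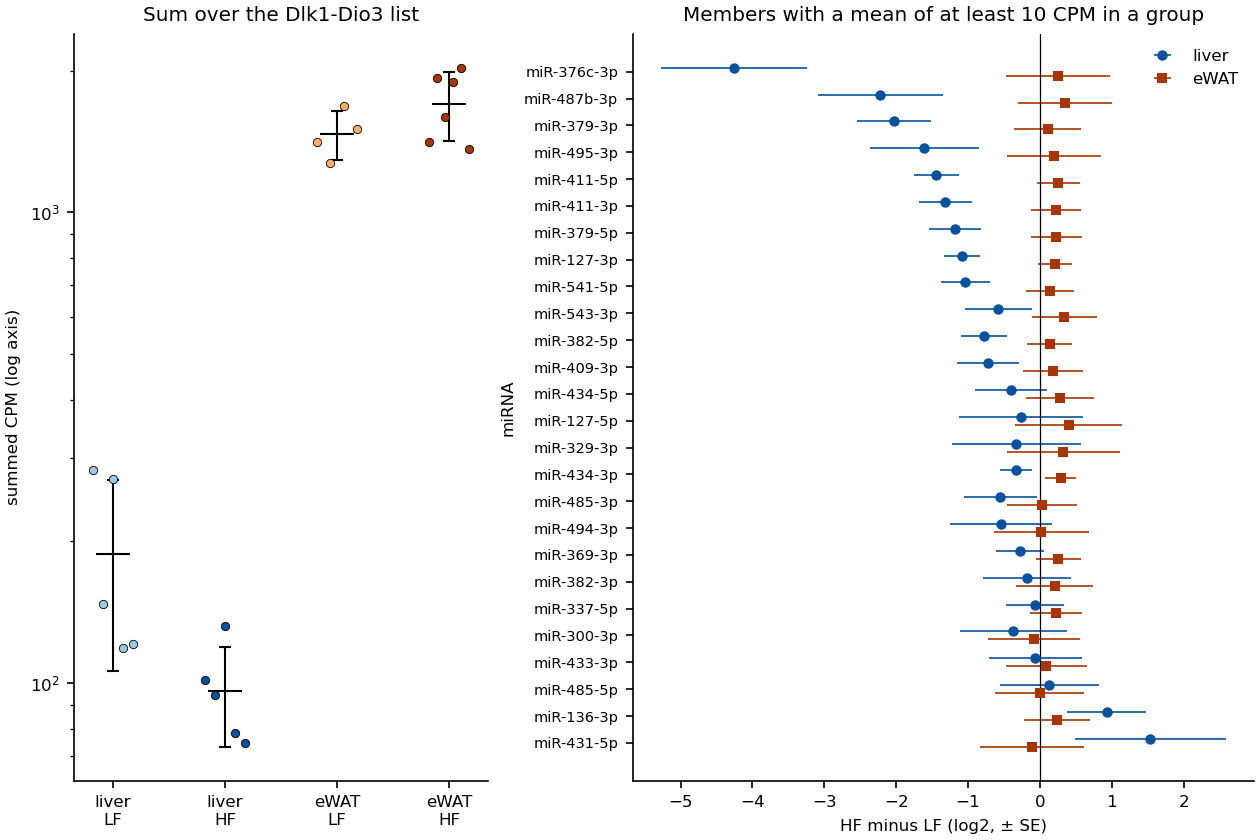
Left, summed CPM of the Dlk1-Dio3 list in each library (log axis), with mean and SD by group (n = 5, 5, 4 and 6). Right, HF minus LF (log2, ± SE) in liver and eWAT for the 26 members with a mean of at least 10 CPM in a group: 23 of the 26 lie below 0 in liver and 23 above 0 in eWAT.

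Most of the more abundant members reached their level in eWAT. Of 26 members with a mean of at least 10 CPM in any group, 23 had a value below 0, with a median of -0.67, and in 8 of these the unadjusted p was under 0.05. None of the 26 was at 0 in a whole group, but only 5 of them reached 10 CPM in a liver group, and miR-376c-3p had 85 counts in LF liver and 5 in HF liver. Those 5 were miR-379-5p, miR-541-5p, miR-411-5p, miR-127-3p and miR-434-3p. All 5 had a value below 0, and 4 had an unadjusted p under 0.05, without miR-434-3p.

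miR-411-5p stands near the start of the miR-379 to miR-410 part of the cluster. Its level in LF liver replicates 1, 2, 3, 5 and 6 was 17.3, 11.4, 27.2, 9.22 and 10.7 CPM, and in HF liver replicates 1 to 5 it was 6.20, 2.91, 8.41, 3.32 and 6.81 CPM. Every HF liver library lay below every LF library. In eWAT it was 108, 67.5, 126.9 and 138 CPM in LF and ran from 93.7 to 160 with a median of 140.99 CPM in HF, and the groups overlapped. The fitted difference was -1.44 ± 0.31 (SE) in liver and 0.26 ± 0.30 in eWAT, and the difference between tissues was -1.70 ± 0.43 (edgeR adjusted p = 0.0899). The library liver LF replicate 4 held 0 counts of miR-411-5p, and with all 24 libraries the value was -1.55 (adjusted p = 0.678).

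How many miRNAs would separate in this way by chance was not tested. All HF liver libraries lay below all LF liver libraries in 5 of the 674 miRNAs (0.742%), which were miR-411-5p, miR-668-3p, miR-10b-5p, miR-501-3p and miR-743b-3p. The last pair was named after its values were seen. All HF liver libraries lay above all LF ones in 1 miRNA (0.148%), miR-203b-3p.

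miR-127-3p is processed from the transcript antisense to Rtl1 and is known to direct cleavage of the Rtl1 message in placenta. In LF liver replicates 1, 2, 3, 5 and 6 it stood at 18.6, 12.3, 8.49, 16.01 and 5.93 CPM, and in HF liver at 3.56, 7.01, 6.71, 5.33 and 6.27 CPM. LF replicate 6 lay within the HF range, and the other 4 LF libraries lay above it. In eWAT it was 180, 138, 229 and 145.1 CPM in LF and 168 to 235 with a median of 202 CPM in HF. Tissues differed by -1.29 ± 0.34 (edgeR adjusted p = 0.0899), from -1.08 ± 0.25 in liver and 0.21 ± 0.23 in eWAT. Without liver LF replicate 6 the value was -1.37 and the adjusted p 0.0305.

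miR-379-5p, the first miRNA of its cluster and the most abundant of the list, showed the same order with a wider spread. LF liver libraries held 69.3, 25.9, 47.8, 19.5 and 17.7 CPM and HF liver libraries 10.8, 18.99, 27.9, 10.1 and 11.3 CPM, and the groups overlapped. In eWAT it averaged 298 ± 60.1 CPM (SD, n = 4) in LF and 350 ± 86.1 (n = 6) in HF. Tissues differed by -1.41 ± 0.50 (edgeR adjusted p = 0.329). The other arm, miR-379-3p, gave -2.14 ± 0.70 (adjusted p = 0.244), and miR-411-3p gave -1.54 ± 0.51 (adjusted p = 0.253).

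miR-434-3p, at 169 CPM in LF eWAT, had the same direction with a smaller liver difference, -0.33, and -0.63 ± 0.31 between tissues (edgeR adjusted p = 0.459). Some members had the opposite sign. miR-136-3p and miR-431-5p, chosen here after their values were seen, lay above 0 at 0.69 ± 0.71 and 1.64 ± 1.27, on means of 0.223 to 1.33 CPM in liver. Both members that were higher in liver at an unadjusted p under 0.05, miR-323-3p and miR-369-5p, rested on 12 and 10 counts in HF liver and 0 in LF liver.

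**Figure D3:**
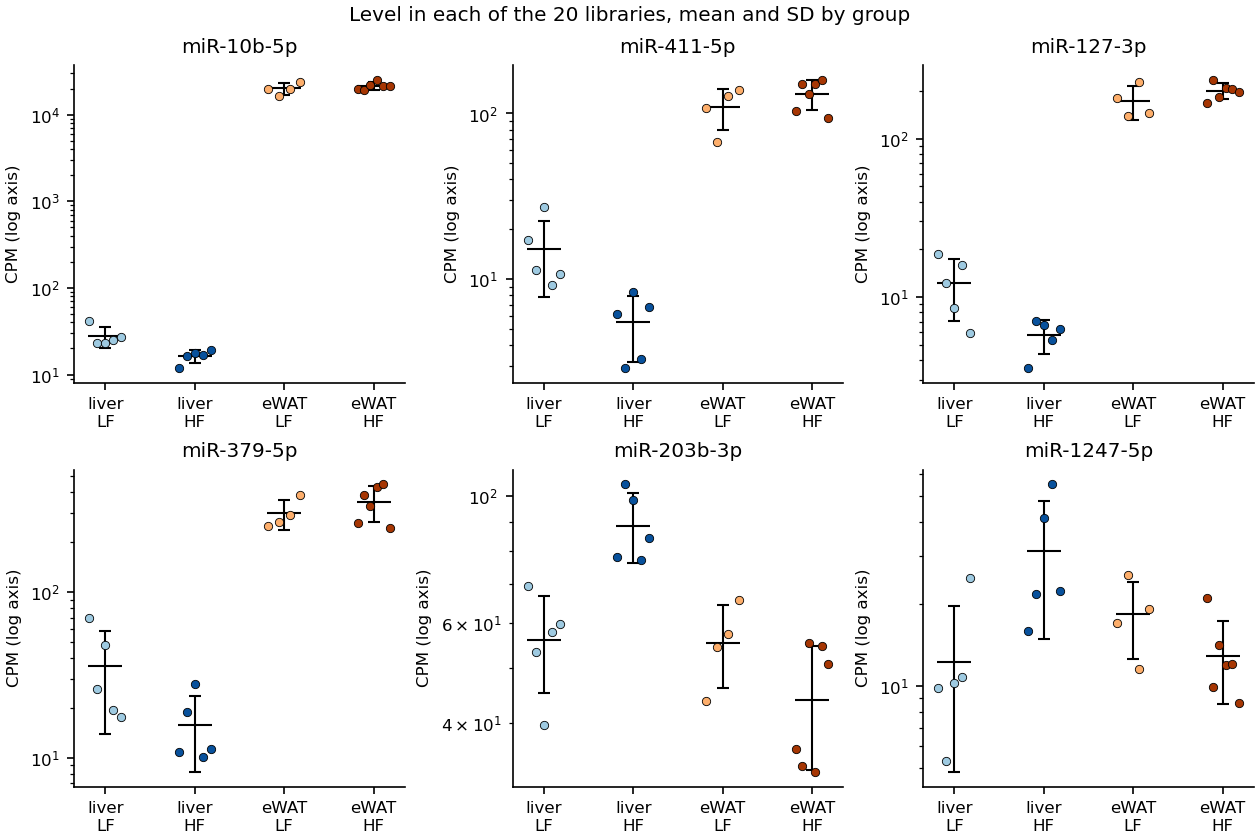
Level (CPM, log axis) of 6 miRNAs in each of the 20 libraries, with mean and SD by group (n = 5, 5, 4 and 6). miR-10b-5p and miR-411-5p separate LF from HF in liver and overlap in eWAT, miR-127-3p and miR-379-5p overlap in both tissues, and miR-203b-3p is the 1 miRNA higher in every HF than in every LF liver library.

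Several of the smallest p-values belonged to miRNAs with few reads in liver, shown here as raw counts. miR-409-5p was counted 25, 2, 13, 0 and 8 times in LF liver replicates 1, 2, 3, 5 and 6 and 0 times in each of the 5 HF liver libraries. LF replicate 5 was thus like the HF libraries. With 3 counts over the HF group as the floor, the level in LF liver was at least 20.9-fold higher. In eWAT its level was 3.47, 6.84, 7.14 and 5.76 CPM in LF and 4.76 to 14.2 with a median of 6.86 CPM in HF, and the groups overlapped. Between tissues the difference was at least 27.2-fold at that floor (edgeR adjusted p = 0.0581), and 16.97-fold without liver LF replicate 1.

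miR-668-3p was even across LF liver, with 10, 8, 10, 11 and 10 counts, while HF liver had 0, 0, 0, 4 and 3. Every LF library lay above every HF library. In eWAT it averaged 7.46 ± 1.18 CPM (SD, n = 4) in LF and 9.35 ± 3.09 (n = 6) in HF. Between tissues the difference was -3.55 ± 0.83 (edgeR adjusted p = 0.0826). The liver LF replicate 4 library held 0 counts of miR-409-5p, miR-668-3p, miR-299a-3p and miR-376c-3p, as did liver HF replicate 6. With all 24 libraries the value of miR-668-3p was -3.64 (adjusted p = 0.0913).

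miR-299a-3p had 24, 13, 21, 0 and 9 counts in LF liver and 4 in 1 HF liver library. Its difference was -4.67 ± 1.15 (edgeR adjusted p = 0.0826). miR-376c-3p had 44, 24, 1, 0 and 16 counts in LF liver and 5 in 1 HF library, with -4.51 ± 1.27 (adjusted p = 0.156). LF replicate 5 was at 0 for both, as for miR-409-5p. Leaving that library out, 6 miRNAs passed the threshold: miR-409-5p, miR-299a-3p, miR-376c-3p, miR-668-3p, miR-10b-5p and miR-411-5p. Their adjusted p-values then were 0.00274 to 0.0490.

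miR-673-5p, upstream of the interval of the list, had 27 and 7 counts in 2 LF liver libraries and 0 elsewhere in liver. Outside the region, miR-193b-5p, partner of the miR-193b that is linked to brown fat, had 4, 6, 6, 0 and 0 counts in LF liver and 0 in HF liver. miR-296-5p had 29, 3, 10, 0 and 2 counts in LF liver and 0 in HF liver, but the left-out libraries liver LF 4 and HF 6 held 70 and 184. For miR-673-5p, miR-193b-5p and miR-296-5p in turn, the difference between tissues was at least 15.4-fold, 5.98-fold and 19.8-fold at the floor, with edgeR adjusted p = 0.168, 0.176 and 0.176. The first and the last rest on liver LF replicate 1: without it the bounds were 4.13-fold for miR-673-5p, on 7 counts, and 8.78-fold for miR-296-5p, on 15. With all 24 libraries the fitted value of miR-296-5p was -0.50 (adjusted p = 1.00), so its bound holds for the 20 libraries alone.

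**Figure D4:**
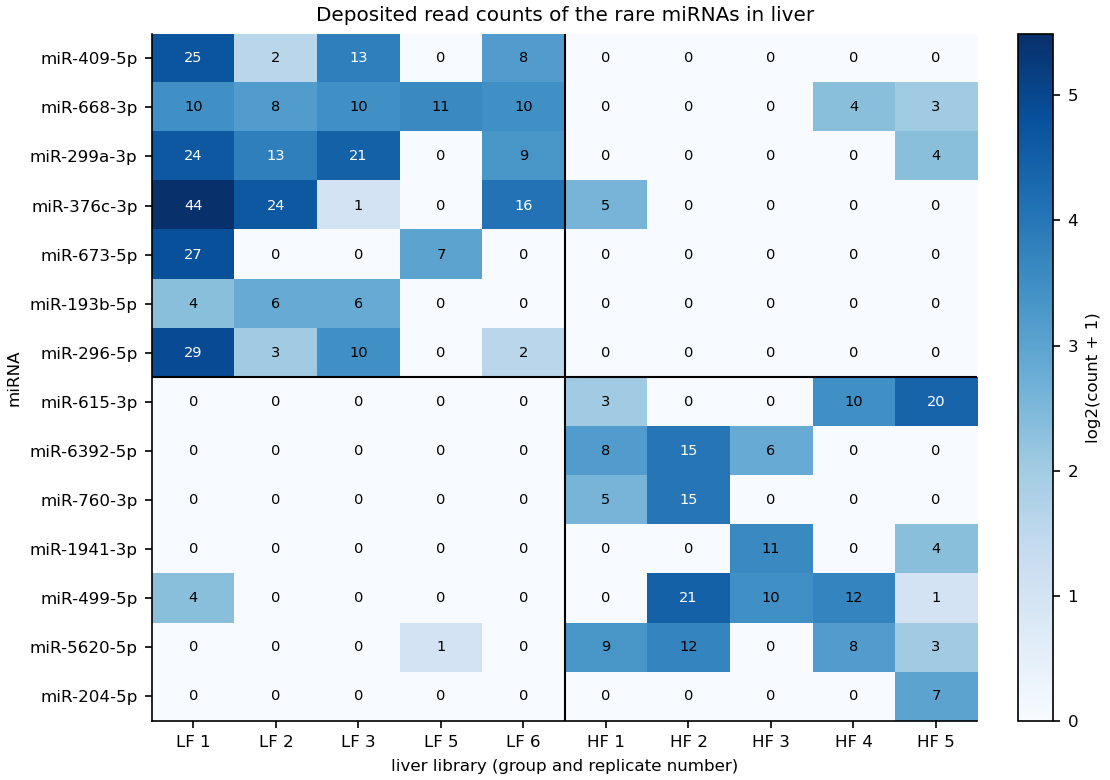
Deposited read counts in the 10 liver libraries (columns) for 14 miRNAs with few reads (lines of the grid), shaded by log2(count + 1). The upper 7 have counts mainly in LF libraries and the lower 7 mainly in HF libraries, with 0 to 44 counts in any library.

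miR-10b-5p, encoded in the Hoxd cluster, was the most abundant eWAT miRNA among the 10 of smallest p in each direction. In LF liver it stood at 41.5, 23.2, 23.0, 25.1 and 27.4 CPM, and in HF liver at 11.9, 16.2, 17.7, 16.8 and 19.3 CPM. Every HF liver library lay below every LF library. In eWAT it was 19892, 16508, 19932 and 24071 CPM in LF and 19268 to 25387 with a median of 21341 CPM in HF, and the groups overlapped. The difference between tissues was -0.88 ± 0.21 (edgeR adjusted p = 0.0826), from -0.78 ± 0.15 in liver and 0.10 ± 0.15 in eWAT. With all 24 libraries it was -0.43 (adjusted p = 0.969), and liver LF replicate 4 held 8 counts of it, fewer than any LF library kept.

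miR-196a-5p, from the Hoxc cluster and linked to the browning of fat, was at 0 in all HF liver libraries and at 0.788 ± 1.18 CPM (SD, n = 5) in LF. In eWAT a single library, HF replicate 1, held 451.4 CPM, and the other 5 HF libraries held 16.8 to 81.5. It was at least 45.9-fold different between tissues at the floor, with an edgeR adjusted p = 0.362. Without that library the bound was 14.4-fold, and without liver LF replicate 2 it was 23.0-fold.

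Fewer miRNAs had a HF effect higher in liver than in eWAT. miR-203b-3p, the miRNA opposite miR-203, was 69.6, 53.3, 39.8, 57.7 and 59.8 CPM in LF liver and 78.2, 105, 98.4, 77.1 and 84.6 CPM in HF liver. Every HF liver library lay above every LF library. In eWAT it was 43.6, 54.4, 57.3 and 65.6 CPM in LF and 32.8 to 55.1 with a median of 43.4 CPM in HF, lower on average with overlap. Tissues differed by 0.99 ± 0.26 (edgeR adjusted p = 0.0899), from 0.66 ± 0.18 in liver and -0.33 ± 0.18 in eWAT. With all 24 libraries it was 0.65 (adjusted p = 0.752).

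miR-1247-5p, encoded in Dio3os, was 9.82, 5.28, 10.3, 10.8 and 24.8 CPM in LF liver and 15.8, 21.8, 41.3, 55.2 and 22.2 CPM in HF liver. LF replicate 6 stood apart from the other 4 LF libraries and lay within the HF range. In eWAT it was 17.04, 25.5, 11.5 and 19.1 CPM in LF and 8.65 to 20.9 with a median of 11.97 CPM in HF. Between tissues the difference was 1.85 ± 0.53 (edgeR adjusted p = 0.156). Without liver LF replicate 6 it was 2.41 (adjusted p = 0.0305). The liver LF replicate 4 library held 0 counts of it, and with all 24 libraries the value was 3.06 (adjusted p = 0.0913).

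miR-802-5p, a hepatocyte miRNA known to be raised in obese mouse liver, was 204 ± 68.5 CPM (SD, n = 5) in LF liver and 299.7 ± 48.8 (n = 5) in HF liver. LF libraries ran from 106.96 to 289 and HF libraries from 230 to 355 CPM, with overlap. The liver difference was 0.56 ± 0.57. The difference between tissues, 3.09 ± 1.04 (edgeR adjusted p = 0.271), came mainly from the eWAT side, where LF replicate 3 held 4.44 CPM and every other eWAT library at most 0.623. Without that library it was 1.28 (adjusted p = 0.710).

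The other miRNAs higher in liver were near the floor there. miR-615-3p, encoded in the Hoxc cluster, had 0 counts in all LF liver libraries and 3, 0, 0, 10 and 20 in HF liver, while eWAT held 109 to 140.9 CPM in LF and a median of 124.6 CPM in HF. Its difference was at least 8.51-fold at the floor (edgeR adjusted p = 0.168), and 4.35-fold without liver HF replicate 5. miR-6392-5p, miR-760-3p, miR-1941-3p and miR-204-5p were also at 0 in LF liver and had 29, 20, 15 and 7 counts in HF liver. miR-499-5p, a miRNA of striated muscle, had 4 counts in LF and 44 in HF liver, and miR-5620-5p had 1 and 32. The left-out libraries liver LF 4 and HF 6 held 0 counts of each of these 7. The smallest adjusted p among miR-6392-5p, miR-760-3p, miR-1941-3p, miR-499-5p, miR-5620-5p and miR-204-5p was 0.244.

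The let-7 family lay slightly lower in HF than in LF liver and slightly higher in HF than in LF eWAT, and no member passed the threshold. All 9 arms of the list (let-7a to let-7g, let-7i and miR-98, 5p) had a value below 0, with a median of -0.21 against -0.09 over all miRNAs. Without TMM scaling the median was -0.09, where all miRNAs stood at 0.03, and let-7g-5p was then above 0, as it was with all 24 libraries. The 9 arms share a seed, so they are not independent of each other in targets or, where sequences are near identical, in counts.

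let-7e-5p, the arm with the only unadjusted p under 0.05, was 1655, 2725, 3033, 3070 and 2147 CPM in LF liver and 2802, 1653, 1755, 1194 and 1656 CPM in HF liver. HF replicate 1 stood above the other 4 HF libraries, and the groups overlapped. In eWAT it was 3431, 2893, 3362 and 2654 CPM in LF and 3060 to 4131 with a median of 3598 CPM in HF. The difference between tissues was -0.70 ± 0.26 (edgeR adjusted p = 0.336). The other 8 arms ran from -0.31 for let-7d-5p to -0.09 for let-7g-5p, with adjusted p from 0.507 to 0.899.

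As a share of all counts, the 9 arms made up 17.6% ± 0.877 (SD, n = 5) in LF liver and 17.2% ± 0.834 (n = 5) in HF liver. In eWAT they made up 27.6% ± 3.22 (n = 4) in LF and 28.5% ± 2.37 (n = 6) in HF. The groups overlapped within each tissue.

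**Figure D5:**
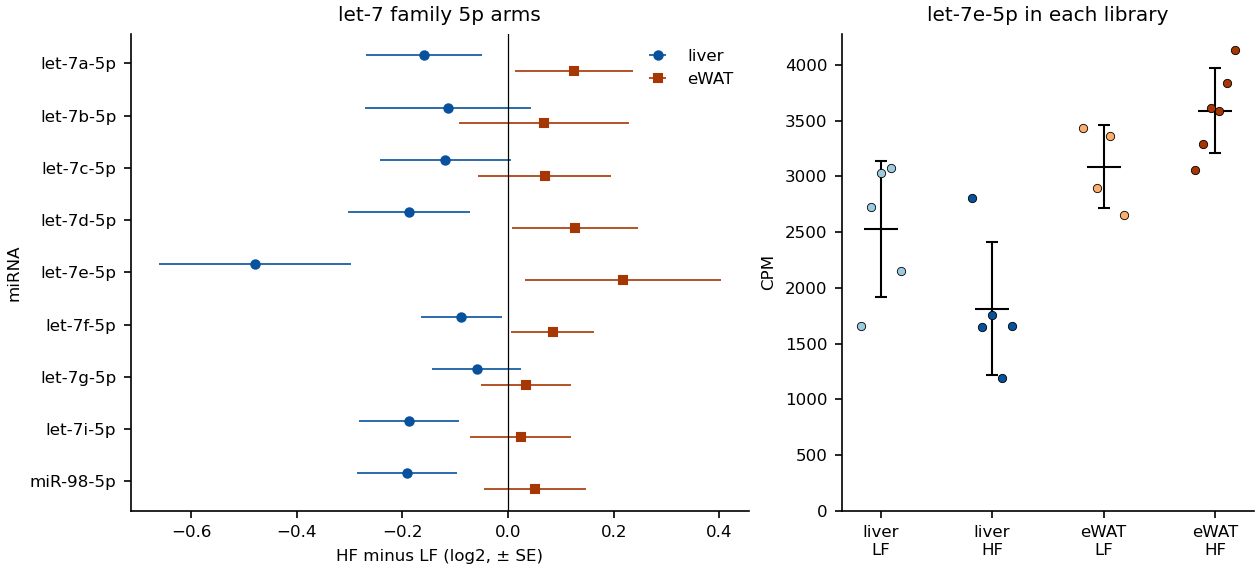
Left, HF minus LF (log2, ± SE) in liver and eWAT for the 9 let-7 family arms. Right, CPM of let-7e-5p in each library with mean and SD by group (n = 5, 5, 4 and 6). With TMM scaling all 9 arms lie below 0 in liver and above 0 in eWAT, let-7e-5p by the most.

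None of the other lists held a miRNA past the adjusted threshold. The 5 members of the miR-378 family, whose miR-378a is encoded within the coactivator gene Ppargc1b and linked to lipid metabolism, all lay above 0, with a median of 0.36 and 0 at an unadjusted p under 0.05. miR-378a-3p was 2918 ± 345 CPM (SD, n = 5) in LF liver and 3375 ± 266 (n = 5) in HF liver, with a difference between tissues of 0.36 ± 0.19 (edgeR adjusted p = 0.512). Of 28 tested miRNAs linked to liver lipid and glucose handling, 19 lay above 0 and 1, miR-802-5p, had an unadjusted p under 0.05.

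In the hepatocyte list 8 of 11 lay above 0 (median 0.11). miR-122-5p gave -0.43 ± 0.48 (edgeR adjusted p = 0.899), and ran from 661432 to 1043280 CPM in HF liver. The macrophage and granulocyte list had 5 of 8 above 0, the lymphocyte list 2 of 6, the erythroid list 4 of 7 and the endothelial list 2 of 3, each with 0 members at an unadjusted p under 0.05. The epithelial miR-200 list had 6 of 8 above 0 (median 0.35), the sensory and epithelial list 3 of 3 (0.48) and the pancreas and endocrine list 4 of 4 (0.52, or 1.22 with a member at 0 in a group set at its bound), again with 0. The striated muscle list had 3 of 5 above 0 (median 0.73, or 0.29 with bounds), 1 of them, miR-499-5p, at an unadjusted p under 0.05. The adipocyte list had 7 of 11 above 0 and 2, miR-10b-5p and miR-196a-5p, lower at that p, and the fibroblast, stellate and smooth muscle list had 1 of 7 above 0 and none at that p. The miR-29 list had 1 of 3 above 0, the miR-30 list 5 of 5 and the miR-15 seed list 2 of 6, and the Sfmbt2 cluster had 18 of 28, each with 0 at that p. The miR-17-92 list with its paralogs had 1 member at an unadjusted p under 0.05 in each direction. One was miR-93-3p, which averaged 12.6 ± 4.08 CPM (SD, n = 5) in LF liver and 7.04 ± 1.24 (n = 5) in HF liver, with -0.97 ± 0.43 (edgeR adjusted p = 0.402).

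Other abundant miRNAs had values close to 0. miR-21a-5p gave -0.17 ± 0.20, miR-26a-5p -0.16 ± 0.16 and miR-143-3p 0.03 ± 0.25 (edgeR adjusted p = 0.899, 0.897 and 1.00). Each was about as large as its SE or smaller.

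The HFLF group gave the same comparison against the same LF libraries, so both share their controls and are set side by side. In a fit of 32 libraries, miR-10b-5p gave -0.88 for HF and -0.96 ± 0.24 for HFLF, and miR-1247-5p 1.85 and 1.79 ± 0.63. miR-203b-3p gave 0.99 and 0.74 ± 0.31, miR-379-5p -1.41 and -1.30 ± 0.53, and let-7e-5p -0.71 and -0.61 ± 0.24. miR-411-5p gave -1.69 and -1.04 ± 0.45, and miR-127-3p -1.29 and -0.71 ± 0.31.

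The miRNAs absent from HF liver were in part present in HFLF liver. Each had 0 counts in every HF liver library, so HFLF liver could only equal or exceed HF liver for them. miR-409-5p had 0, 0, 16, 5, 12 and 9 counts in the 6 HFLF liver libraries, and miR-296-5p 0, 4, 10, 24, 0 and 15. miR-673-5p had 0, 0, 1, 13, 0 and 9 counts there and miR-193b-5p 0, 0, 0, 0, 5 and 0, while miR-196a-5p had 0 in all 6. miR-668-3p was not absent from HF liver, with 0, 0, 0, 4 and 3 counts. In HFLF liver it had 0, 1, 3, 0, 0 and 7 counts. Some members of the Dlk1-Dio3 list went the other way, with a lower value for HFLF than for HF. Of these, picked after their values were seen, miR-434-5p gave -0.66 for HF and -3.05 ± 0.78 for HFLF. miR-433-3p gave -0.15 and -2.99 ± 0.99. HF and HFLF were compared directly, a test in which the LF libraries cancel. Of 745 miRNAs tested, 0 differed at an adjusted p under 0.05 with edgeR (0%), and 69 had an unadjusted p under 0.05 (9.26%). The smallest adjusted p was 0.130, for miR-409-5p.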

How the data were processed

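Small RNA was sequenced from liver and eWAT of 36 samples, and 20 libraries in 4 groups enter the comparison. Per the labels' protocols, 1 ug of total RNA went into NEXTFLEX v3 small RNA libraries. Per the submitters' processing notes, reads were handled with cutadapt and Bowtie on GRCm38.p6. Their versions and the counting settings are not given here by any source. The deposited count table has 2118 lines for 1966 mature names, 1 line per precursor, and the values are raw counts. The authors also deposited log2 values per tissue, used for an alternative only. Columns marked L are liver and those marked W eWAT, as the tissue tables show, while the letters for the diet groups were matched to the labels by their abbreviations alone.

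For each mature name the line with the highest total was kept, since 51 of 87 miRNAs with several lines had identical ones, and a copy with the same mature sequence cannot be told apart. Counts were fitted in edgeR 4.0.16 (R 4.3.3) with TMM factors, filterByExpr (minimum count 10, total 15) and the robust quasi-likelihood test. The contrast was liver HF minus LF minus eWAT HF minus LF, with Benjamini-Hochberg adjustment over all 674 miRNAs. The code was tested on simulated counts. A standard error is the size of the log2 value divided by the square root of F. No fitted fold is given for a miRNA at 0 in a whole group, and the bound uses 3 counts over that group. Such bounds cover counting error only, since PCR copies of 1 molecule are counted as separate reads. Within groups the smallest chi-square per degree of freedom between replicates was 72.1, so no library was a repeat of another in its group. Libraries of different groups were not compared in this way.

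DESeq2 1.42.0, limma 3.58.1, other scalings, filters, precursor sums, library sets and a replicate block were alternatives. Named miRNAs are the 10 with the smallest p in each direction, the let-7 5p arms, the 5 most abundant in each tissue and, per list, the 2 members of smallest p with at least 10 CPM in a group plus the most abundant. The lists were let-7, liver lipid and glucose, Dlk1-Dio3, Sfmbt2, miR-17-92 with paralogs, miR-29, miR-30, the miR-15 seed, miR-378 and markers of 12 cell types. Members and lists were chosen with earlier results of these data known. RefSeq gave mature sequences for 569 of the 674 miRNAs, and hosts come from GENCODE M21.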

Additional observations from a re-analysis of the deposited data

Results flagged for a closer look

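In groups of 4 to 6 libraries, 19 of the 176 combinations of a named miRNA and a group held a library set apart from the rest. The rule was Dixon's 95% criterion, which chance meets in about 1 of 20 groups of normally distributed values. That rate does not hold here, since a library that alone held counts in its group was always flagged. Groups with equal values in all libraries could not be flagged but are counted in the total. All values are CPM.

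In liver LF, replicate 1 stood high for miR-10b-5p (41.5, others 23.0 to 27.4), miR-673-5p (3.19) and miR-499-5p (0.473). Replicate 6 stood high for miR-1247-5p (24.8, others 5.28 to 10.8), replicate 5 for miR-5620-5p (0.121) and replicate 2 stood low for miR-378d (56.1, others 87.1 to 94.0).

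In liver HF, replicate 1 stood high for let-7a-5p (74770), let-7b-5p (16919), let-7c-5p (45142), let-7d-5p (12868) and miR-122-5p (1043300), and it had the lowest TMM factor of the 20 libraries, 0.546. Its let-7 share of counts was 16.7%, within the 16.1% to 18.2% of the group. It was also the only HF liver library with miR-376c-3p (0.660). Replicate 5 alone held miR-299a-3p (0.363) and miR-204-5p (0.636).

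In eWAT, LF replicate 3 stood high for miR-802-5p (4.44). HF replicate 3 stood high for miR-409-5p (14.2), HF replicate 5 for miR-1941-3p (5.26) and HF replicate 1 for miR-143-3p (155830) and miR-196a-5p (451.4, others 16.8 to 81.5). The cause was not tested for any of these.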

How the results depend on the processing

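The count of 0 miRNAs past the threshold became 16 with DESeq2, 5 with no filter on low counts (1286 tested) and 1 with the HFLF libraries in the fit, and was 0 under plain CPM, TMM within each tissue, a filter at 10 CPM, limma voom, summed precursor lines, all 24 libraries and the authors' log2 values (149 miRNAs). Leaving out 1 library at a time gave 0 to 6 calls: 6 without liver LF replicate 5, 3 without liver LF replicate 6 or liver HF replicate 5, and 1 without liver LF replicate 2 or liver HF replicate 4. Over these alternatives miR-409-5p passed in 7, miR-668-3p in 5, miR-299a-3p in 4, and miR-10b-5p and miR-127-3p in 3. The labels do not say whether same-numbered liver and eWAT libraries share a mouse. Their deviations correlated at -0.29 to 0.22 over 9 pairs, 3 over 0.1, which does not settle it, and the replicate block was kept as an alternative, which called 0, with 26 at an unadjusted p under 0.05 against 71 without it. Of 1336 values of 44 miRNAs, 19 changed sign. let-7g-5p was 0.031 under plain CPM and 0.059 with all 24 libraries, where miR-21a-5p was 0.015, miR-214-3p 0.21 and miR-199a-5p 0.48. Across single libraries left out, let-7b-5p ran from -0.26 to 0.026, let-7g-5p from -0.19 to 0.052, miR-21a-5p from -0.33 to 0.054 and miR-143-3p from -0.082 to 0.28. The cause was not tested. The median of the Dlk1-Dio3 list stayed between -1.37 and -0.90 in all alternatives in which it could be computed; no member is shared by both log2 tables. Depth limits most the miRNAs with 0 to 44 counts per liver library, for which 1 library can move the value.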
